A study of Sus scrofa with 9 samples.

Results

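The miR-34 family was followed in spleens of Ningxiang pigs, a breed native to China, taken on postnatal day 30, 90 or 210. Of 975 different entries in the deposited table of mature microRNAs (miRNAs), 3 are family members: ssc-miR-34a, ssc-miR-34c and ssc-mir-34c-1-p3 (ssc for Sus scrofa, left out of most names from here on). They were chosen by name (miR-34a, miR-34b, miR-34c or any miR-449, either arm of the hairpin); 0 entries carry the name of miR-34b and 0 that of miR-449. The 3 ages have 3 small RNA libraries each. All groups are whole spleen of the same breed with no treatment named, and no label gives an animal's sex or ties a library to an animal. Each p-value is therefore measured against the scatter of the 3 libraries within an age, pooled over the 3 ages. That scatter may be technical. Values are the authors' normalised read numbers per mature sequence. A read covers a whole miRNA, so they are not divided by length.

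miR-34a comes from a gene of its own, while miR-34b and miR-34c are cut from one shared transcript, and the miR-449 miRNAs carry the same seed, the stretch near the 5′ end that pairs with target transcripts. The tumour suppressor p53 raises transcription of both miR-34 genes in human and mouse cells, and the family is known for restraining the cell cycle and survival through targets such as CDK6, MET and BCL2. In mouse B cell development miR-34a is known to repress Foxp1, while miR-34b, miR-34c and miR-449 are best known from ciliated epithelium, where they serve the making of motile cilia. In RefSeq's pig annotation (Sscrofa11.1) the hairpin gene MIR34C-1 lies within the spans of the protein-coding genes BTG4 and C9H11orf88, with LAYN the next gene.

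The sequences show who shares a seed with whom. They are given 5′ to 3′ as in the table, with T for U and with bases 2 to 8, the seed, in capitals; the last line of each set is not a family member by name but a predicted candidate, marked PC in the table.

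miR-34a: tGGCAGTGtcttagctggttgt
miR-34c: aGGCAGTGtagttagctgattga
PC-5p-35806_77: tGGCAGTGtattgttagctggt

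mir-34c-1-p3: aATCACTAaccacacggccagg
PC-3p-5187_753: aATCACTAattccactgccatc

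Compared base by base from base 1, miR-34a and miR-34c had the same letters at 11 of 22 positions, with an unbroken shared run of 8 bases from base 2. None of the position counts given here allows a gap, so they do not rank how alike the sequences are. The candidate PC-5p-35806_77 was the one further entry with this seed, and it matched miR-34a at 15 of 22 positions, 9 of them in a run from base 1. No entry held the seed 1 base earlier or later. mir-34c-1-p3 is named for the opposite arm of the miR-34c hairpin; a duplex of both strands computed with ViennaRNA had 17 base pairs. It has another seed, which 1 other entry shared: PC-3p-5187_753, alike at 16 of 22 positions, with a run of 9 from base 1. This second candidate was singled out after its values were seen, and no gene name is given to either candidate here.

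The libraries held an estimated 4.50 to 9.25 M reads (M, mega), read from the steps between low values on the assumption that the commonest low value stands for 5 reads. Day 210 replicate 3 was the shallowest, at 4.50 M. The spleen label was checked against miRNAs known to mark cell types: miR-150 of mature lymphocytes averaged 73096 over the 9 libraries, whereas miR-217 of the pancreas averaged between 2.03 and 9.74 per age. Not all markers of other tissues were scarce: miR-9 of the neural list averaged 616 over the 9 libraries, and miR-133a-3p of striated muscle 6953. Their source was not tested. Differences between ages were tested with limma on log2(value + 1) over all 9 libraries, and a change is called at an adjusted p under 0.05 (Benjamini-Hochberg over the 630 sequences that reached 5 in 3 or more libraries). All 3 members and both candidates passed that filter. With whole spleen, more cells that hold a miRNA and more of it per cell cannot be told apart.

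Within the spleen miR-34a was the most abundant member, with a mean of 471 over the 9 libraries, the 188th highest of 453 entries named as pig miRNAs. miR-34c followed at 173 (rank 250 of 453), and mir-34c-1-p3 at 27.4 (rank 331). As a share of all values in a library, miR-34a made up between 23.9 and 133.4 ppm, miR-34c between 17.2 and 38.0 ppm, and mir-34c-1-p3 between 2.44 and 6.89 ppm. All 27 values of the members were whole multiples of the library's step (tolerance 0.01 of a step), which puts between 146 and 891 reads behind a miR-34a value, 113 to 201 behind a miR-34c value and 16 to 32 behind a mir-34c-1-p3 value.

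miR-34a had its highest values at day 90. Replicates 1, 2 and 3 of ssc-miR-34a had normalised read numbers of 448.9, 273 and 453 at day 30, then 854, 571 and 609 at day 90, and 320.001, 188 and 518 at day 210. All 3 day 90 libraries lay above every library of the other ages, which held for 29 of the 630 sequences tested (4.60%), while the day 210 and day 30 values overlapped. Pair by pair, day 90 above day 30 without overlap held for 14.1% of sequences, and day 210 below day 90 for 15.9%. The means were 392 ± 103 at day 30, 678 ± 154 at day 90 and 342.3 ± 166 at day 210 (SD, n = 3), so the libraries of day 210 spread most widely, by 48.5% of their mean.

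**Figure D1:**
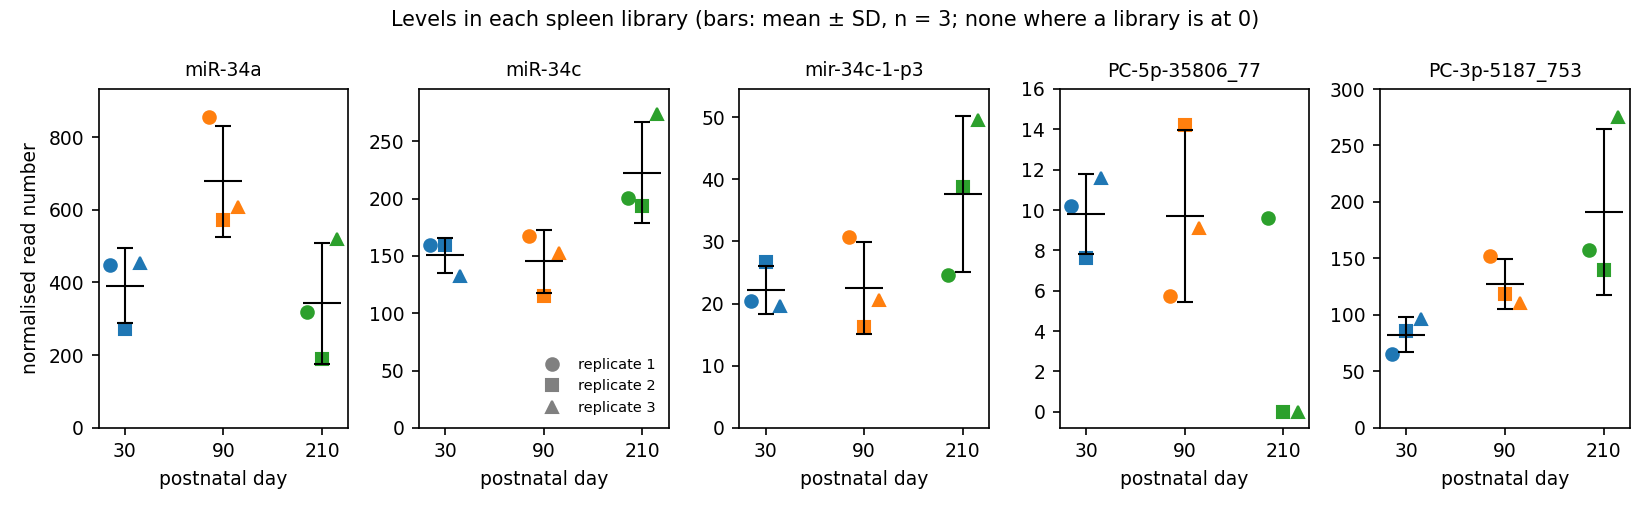
Normalised read number (vertical axis, linear) against postnatal day for the 3 members and both candidates of shared seed; each symbol is a library and bars are mean ± SD (n = 3), left out where a library is at 0. miR-34a is highest in the 3 day 90 libraries (571 to 854), and miR-34c in the 3 day 210 libraries (193.7 to 274).

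These differences of miR-34a did not pass the threshold on the adjusted p, which is not one on size. Between day 90 and day 30, miR-34a was 1.75-fold higher at day 90 (log2 0.81 ± 0.36 SE, 95% interval -0.011 to 1.62, adjusted p 0.338 by limma), in a comparison where 1.11% of sequences were called. Between day 210 and day 90 it had a log2 fold change of -1.08 ± 0.36 (interval -1.90 to -0.26, unadjusted p 0.0147, adjusted p 0.104 by limma), with 8.10% of sequences called; it had the 89th smallest p, and 51 sequences passed. For day 210 over day 30 the log2 fold change was -0.27 ± 0.36 (interval -1.09 to 0.54, adjusted p 0.652 by limma), with 9.21% called. The F test over the 3 ages gave an adjusted p of 0.136, where 10.3% of sequences passed.

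The comparison of day 210 with day 90 depended on single libraries. Without day 210 replicate 3, in which miR-34a stood at 518, the log2 fold change was -1.44 and the adjusted p 0.0156 by limma. Without day 210 replicate 2 it was -0.71 (adjusted p 0.253 by limma), and without day 90 replicate 1 it was -0.90 (adjusted p 0.292). With limma's sample weights it was -1.36 with an adjusted p of 0.0187. Over all 22 alternatives the adjusted p ran from 0.0156 to 0.292. Day 210 replicate 3 was the shallowest of the 9 libraries. Both entries of miR-223, the marker chosen for myeloid cells, summed to 4962 to 9433 at day 30, 7912 to 9476 at day 90 and 4776 to 6359 at day 210, with 0 of 2 called in any comparison. The 7 entries of the lymphocyte markers summed to 193354 to 220856 at day 30, 228291 to 269631 at day 90 and 268278 to 282123 at day 210, with 1 of 7 called higher in each comparison (of all sequences, 0.794% were called higher at day 90 than at day 30, 4.60% at day 210 than at day 30 and 4.13% at day 210 than at day 90). The called entry was miR-150 in both comparisons with day 30 and miR-342 at day 210 against day 90; miR-150 at day 90 against day 30 lost its call without day 90 replicate 1 or 2 or any 1 day 30 library (adjusted p up to 0.136 by limma), and miR-342 without day 90 replicate 2 or 3 or day 210 replicate 2 (up to 0.0864). The part of these cell types in the values of miR-34a was not tested.

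miR-34c, which shares the seed of miR-34a, had its highest values at another age. Replicates 1, 2 and 3 of ssc-miR-34c stood at 159.5, 159 and 132 at day 30, then 168, 115 and 153 at day 90, and 201, 193.7 and 274 at day 210. In these deposited values every day 210 library lay above every earlier one, which held for 45 of the 630 sequences (7.14%). The day 30 and day 90 values overlapped. That order depended on the scaling. As a share of all values in a library, miR-34c stood at 26.8, 24.6 and 38.0 ppm at day 210. The shares were 25.9, 24.2 and 20.5 ppm at day 30 and 26.2, 17.2 and 21.7 ppm at day 90. By share, day 210 replicate 2 lay among the earlier libraries. Pair by pair, day 210 lay above day 30 without overlap for 12.1% of sequences and above day 90 for 13.3%. The means were 150.4 ± 15.5 at day 30, 145.1 ± 27.3 at day 90 and 222.6 ± 44.3 at day 210 (SD, n = 3).

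None of these differences was called either. miR-34c was 1.46-fold higher at day 210 than at day 30 (log2 0.55 ± 0.25 SE, 95% interval 0.0011 to 1.10, unadjusted p 0.0496, adjusted p 0.169 by limma) and 1.53-fold higher than at day 90 (log2 0.61 ± 0.25, interval 0.065 to 1.16, unadjusted p 0.0319, adjusted p 0.146 by limma). Between day 90 and day 30 the log2 fold change was -0.064 ± 0.25, with an interval of -0.61 to 0.48 (adjusted p 0.967 by limma). The adjusted p stayed above 0.05 under all 22 alternatives in each comparison, with a lowest of 0.111.

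The fitted size for miR-34c moved with the scaling. The median log2 fold change of all 630 sequences was -0.15 between day 210 and day 30 as deposited, and -0.38 with every library scaled to the same sum, where miR-34c stood at 0.32. Relative to the median, miR-34c stood at 0.70 in both. Against day 90 the median was -0.14 as deposited and -0.31 with equal sums, where miR-34a stood at -1.25.

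The opposite arm, mir-34c-1-p3, had log2 fold changes of the same sign as miR-34c in both comparisons with day 210. Its replicates 1, 2 and 3 had 20.4, 26.7 and 19.5 at day 30, then 30.7, 16.3 and 20.5 at day 90, and 24.5, 38.7 and 49.6 at day 210. Day 210 replicate 1 lay among the earlier libraries and the other two above all of them. The log2 fold change was 0.69 ± 0.42 SE between day 210 and day 30 (95% interval -0.24 to 1.62, adjusted p 0.306 by limma), 0.71 ± 0.42 between day 210 and day 90 (interval -0.22 to 1.64, adjusted p 0.300), and -0.016 ± 0.42 between day 90 and day 30 (interval -0.95 to 0.92, adjusted p 0.998). With 16 to 32 reads behind a value, counting alone moves this arm more than the others.

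Thus 0 of the 3 members were called in any pairwise comparison by limma, the one tool run. At an unadjusted p under 0.05 the count was 0 between day 90 and day 30, where 96 of 630 sequences reached it, 1 between day 210 and day 30 (185 of 630) and 2 between day 210 and day 90 (171 of 630). The 95% intervals are not adjusted for the number of sequences, and they leave room for a change of miR-34a between day 90 and day 30 of up to 3.08-fold.

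**Figure D2:**
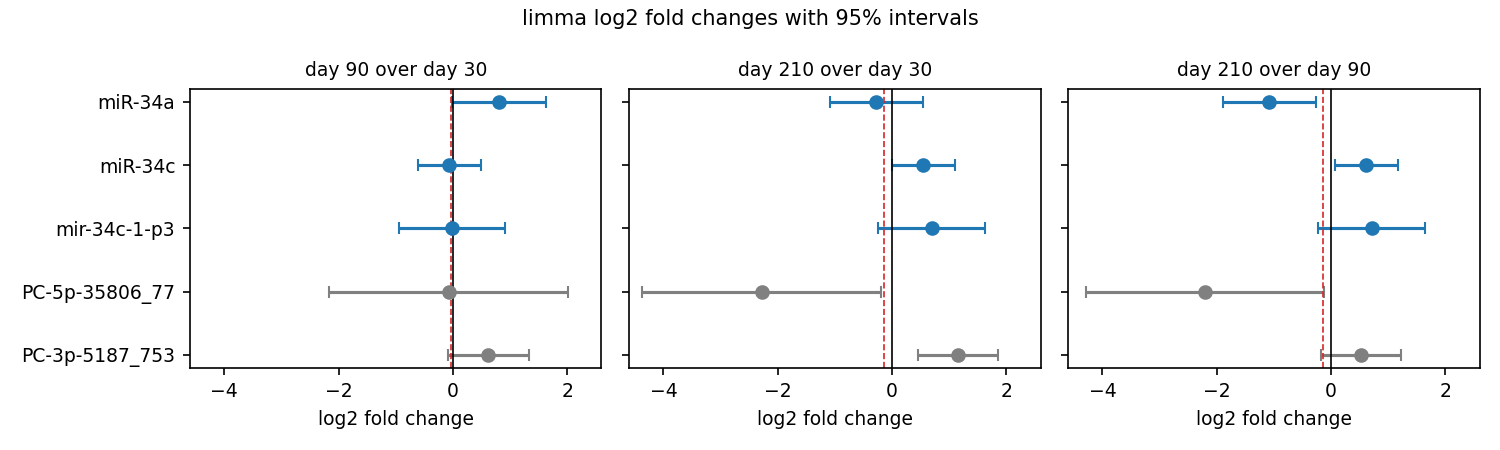
limma log2 fold change (horizontal axis) with its unadjusted 95% interval for the 3 members (blue) and both candidates (grey) in each pairwise comparison of ages; the solid line is 0 and the dashed line the median of all 630 sequences tested. The intervals of miR-34a and miR-34c lie on opposite sides of 0 between day 210 and day 90 (-1.90 to -0.26 and 0.065 to 1.16), and the adjusted p of both is above 0.05.

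Because both carry one seed, the balance of miR-34a and miR-34c within a library was also read. miR-34a was 2.81, 1.71 and 3.42 times miR-34c at day 30, 5.09, 4.97 and 3.99 times at day 90, and 1.60, 0.973 and 1.89 times at day 210, in the order of the replicates. The day 90 libraries had the 3 highest ratios, the day 210 and day 30 ratios overlapped, and in day 210 replicate 2 miR-34c was the more abundant. Of the sum of both, miR-34a made up 71.4 ± 7.41% at day 30, 82.3 ± 2.02% at day 90 and 58.8 ± 8.40% at day 210 (SD, n = 3). The sum itself averaged 542 ± 96.0 for day 30, 823 ± 176 for day 90 and 565 ± 209 for day 210. These ratios are a description of members chosen with results of these data known, and no test of them is given.

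The arms of the miR-34c hairpin kept a steadier balance. miR-34c was 7.83, 5.96 and 6.78 times mir-34c-1-p3 at day 30, 5.47, 7.06 and 7.44 times at day 90, and 8.17, 5.000 and 5.52 times at day 210. The ratios of the 3 ages overlapped, with means of 6.86 ± 0.937 at day 30, 6.66 ± 1.048 at day 90 and 6.23 ± 1.70 at day 210 (SD, n = 3). Across the 9 libraries the log2 values of both arms had a Pearson r of 0.89 (Spearman rho 0.83). Without the 2 libraries farthest from the median of mir-34c-1-p3, r was 0.74. Over all 9 libraries r was -0.23 for miR-34c with miR-34a (rho -0.28) and -0.25 for mir-34c-1-p3 with miR-34a (rho -0.20). The libraries share scaling and age, so these correlations are descriptions.

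**Figure D3:**
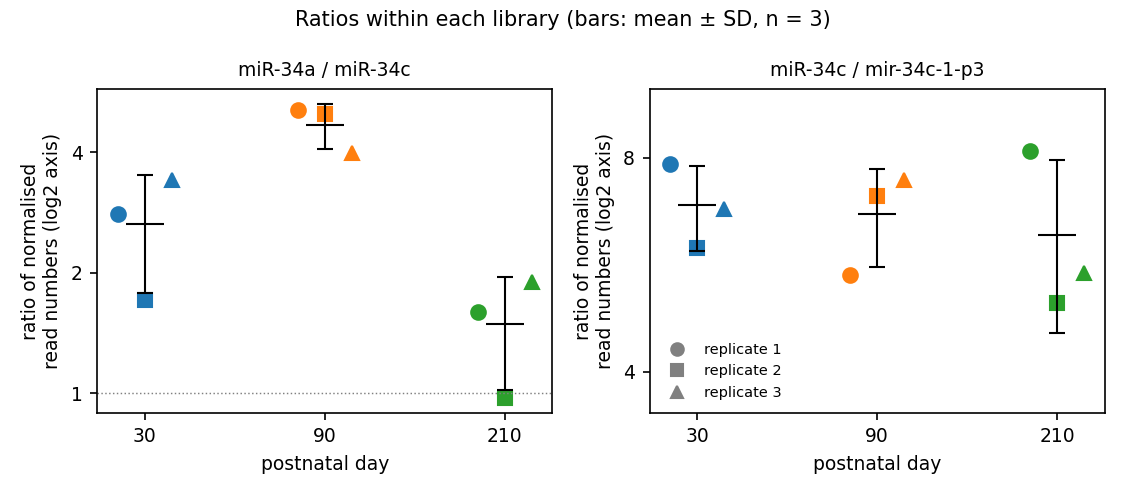
Ratio of normalised read numbers within each library (vertical axes, log2 scale) against postnatal day, for miR-34a over miR-34c (left) and miR-34c over mir-34c-1-p3 (right); symbols are libraries, bars mean ± SD (n = 3), and the dotted line is a ratio of 1. The left ratio runs from 0.973 to 5.09 and is highest in the 3 day 90 libraries, while the right one runs from 5.000 to 8.17 with overlap of all ages.

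The candidates with shared seeds behaved differently from each other. PC-3p-5187_753, with the seed of mir-34c-1-p3, stood at 65.3, 85.8 and 96.3 at day 30, 152, 119 and 110.2 at day 90, and 158, 139 and 275 at day 210. All day 90 and all day 210 libraries lay above the day 30 libraries. Pair by pair, this held for 14.1% of all sequences at day 90 and 12.1% at day 210. It averaged 134 over the 9 libraries, well above mir-34c-1-p3 at 27.4. It was 2.22-fold higher at day 210 than at day 30 (log2 1.15 ± 0.31 SE, adjusted p 0.0483 by limma), the 58th smallest p of 58 called; 18 of 21 alternatives ended the call, each fit without 1 library among them, with adjusted p up to 0.154 (without day 30 replicate 1). Between day 90 and day 30 its log2 fold change was 0.62 ± 0.31 (adjusted p 0.393), and between day 210 and day 90 it was 0.53 ± 0.31 (adjusted p 0.300).

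PC-5p-35806_77, with the seed of miR-34a, was scarce. Its values were 10.2, 7.63 and 11.6 at day 30, 5.75, 14.2 and 9.12 at day 90, and 9.60, 0 and 0 at day 210. In the libraries where it was listed at 0, day 210 replicates 2 and 3, a count of 5 reads is worth 6.46 and 8.001, against values of 5.75 to 14.2 in the other libraries. It was not called in any comparison (adjusted p 0.998 between day 90 and day 30, 0.141 between day 210 and day 30 and 0.169 between day 210 and day 90, by limma), although without day 210 replicate 1 the adjusted p was 0.0152 and 0.0176 in the comparisons with day 210. It adds at most 14.2 to the seed's summed value in a library.

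The miRNAs whose pattern was most like each member were taken by Pearson correlation of log2(value + 1) over the 9 libraries, among 297 other pig miRNA entries with a mean of at least 50 (298 for mir-34c-1-p3). For miR-34a they were miR-146b, known as induced in activated immune cells (r = 0.95, Spearman rho 0.95), miR-21-5p (r = 0.92, rho 0.87), miR-15a (r = 0.89, rho 0.65), mir-142-p5 of blood cells (r = 0.88, rho 0.88) and mir-16-1-p3 (r = 0.88, rho 0.87). Without the 2 libraries farthest from the median of miR-34a, r ran from 0.83 to 0.91 for these 5. miR-146b stood at 3423, 2759.8 and 4535 at day 30, 10089.6, 7930.5 and 7052 at day 90, and 2073, 1362 and 3923 at day 210. Like miR-34a it was highest in all 3 day 90 libraries and, within day 210, highest in replicate 3; it was lower at day 210 than at day 90 (log2 fold change -1.89, adjusted p 0.0149 by limma), a call lost without day 90 replicate 1 (adjusted p 0.0715) or 2 (adjusted p 0.0523). The other 4 were not called in any comparison, and of the 6 entries only miR-34a and miR-146b had all 3 day 90 libraries above the rest.

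For miR-34c the most alike were mir-4332-p5 (r = 0.90), mir-10386-p3 (r = 0.89), miR-10386 (r = 0.87), mir-1285-p3 (r = 0.85) and miR-99a-3p (r = 0.79), and r was 0.57 to 0.81 without the 2 farthest libraries. The first 4 were also among the 5 most like mir-34c-1-p3 (r from 0.86 to 0.93, and from 0.31 to 0.73 without the 2 farthest libraries) and the remaining one was miR-34c. miR-10386 ran from 391 to 35846 over the day 210 libraries, so the likeness with miR-34c, whose day 210 values ran from 193.7 to 274, is not one of size. Nor was the order the same: within day 210, miR-34c was lowest in replicate 2 and miR-10386 in replicate 1. All entries named in this paragraph had their highest value in day 210 replicate 3, the shallowest library.

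Marker sums of striated muscle, and of smooth muscle and fibroblasts, were also high at day 210. They are sums of deposited values and not shares of a library, and the total of a library was itself higher at day 210 than earlier. The 6 striated muscle entries summed to 8063 to 10922.5 at day 30, 5774 to 9136 at day 90 and 11682 to 15120 at day 210, a sum made up mostly of miR-133a-3p and miR-1. Of these, miR-133b was called higher at day 210 than at day 30 (adjusted p 0.0255 by limma) and miR-133a-3p at day 210 than at day 90 (adjusted p 0.0185), 1 of 6 each time, where 4.60% and 4.13% of all sequences were called higher. miR-133b lost its call without day 30 replicate 1 or 3 or day 210 replicate 2 (adjusted p up to 0.101), and miR-133a-3p without day 90 replicate 1 or 2 or day 210 replicate 2 (up to 0.0735). Others of the list did not follow: miR-499-5p averaged 218 at day 30, 299 at day 90 and 169.7 at day 210 (log2 fold change -0.35 for day 210 over day 30 and -0.78 over day 90, not called), and miR-133a-5p averaged 78.3, 61.8 and 80.8 at those ages.

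The 9 entries of smooth muscle and fibroblasts summed to 1131840 to 1182440 at day 30, 900842 to 1228610 at day 90 and 1363850 to 1622390 at day 210. These sums were made up mostly of miR-143-3p and miR-145-5p. As deposited, the day 210 sums did not overlap the earlier ones, and 7.14% of single sequences had all day 210 libraries above all others. All values of a library also summed higher at day 210 (7.20 to 7.88 M) than earlier (6.16 to 7.03 M), and the marker sums were not divided by them. miR-145-5p was the 1 of 9 called higher at day 210 in each comparison, where 4.60% and 4.13% of all sequences were. Its call against day 30 held in 14 of 21 alternatives (adjusted p up to 0.0952 by limma), and that against day 90 in 21 of 21. At day 210, 4 of 9 entries had a log2 fold change above 0 against day 30 (median -0.0046) and 6 of 9 against day 90 (median 0.26). Among the others, miR-199a-5p averaged 58091 at day 30 and 50439 at day 210, and miR-199b-5p 8187 and 4566. Of the epithelial list, 3 of 5 entries were tested and miR-205 was called higher at day 210 than at day 30, at 305, 280 and 128 in replicates 1, 2 and 3 of day 210 against 18.7, 106.8 and 23.2 in those of day 30 (log2 2.59 ± 0.63 SE, adjusted p 0.0324 by limma). It lay lowest of the day 210 libraries in replicate 3, where miR-34c was highest, and the call was lost without any 1 of 6 libraries: day 30 replicate 1 or 3, day 90 replicate 1 or 3, or day 210 replicate 1 or 2 (adjusted p up to 0.135). miR-141 and miR-200b, the others tested, had log2 fold changes of -0.67 and 0.0050 for day 210 over day 30, not called. Not every list was high at day 210. The 3 endothelial entries summed to 50274 to 64233 at day 30, 40192 to 51883 at day 90 and 37837 to 45799 at day 210, with 0 of 3 called in any comparison. Of the 4 red cell entries, 2 were called lower at day 210 than at day 30 by limma, where 4.60% of all sequences were. The part of any of these cell types in the values of miR-34c was not tested.

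**Figure D4:**
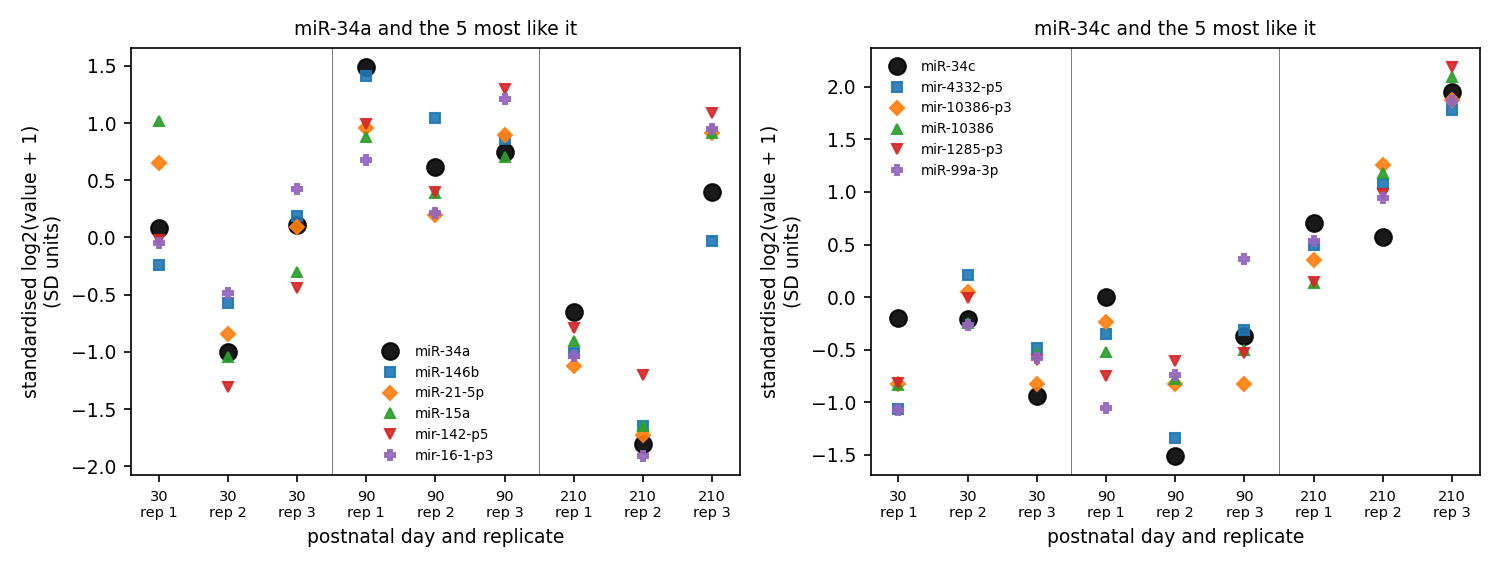
Standardised log2(value + 1) (vertical axis, SD units around each entry's mean over 9 libraries) in every library, for miR-34a (left) and miR-34c (right, both black) with the 5 pig miRNAs of highest Pearson r. 5 of the 6 entries on the left, miR-34a among them, are lowest in day 210 replicate 2 (188 for miR-34a), and all 6 on the right are highest in day 210 replicate 3 (274 for miR-34c).

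Other miRNAs that p53 is known to raise, by transcription or by processing, in human or mouse cells matched 18 entries, of which 15 were tested. None was called between day 90 and day 30 by limma (0.794% of all sequences were called higher and 0.317% lower), where miR-107 (log2 -0.54 ± 0.15, adjusted p 0.156), miR-143-5p (-0.57 ± 0.16, adjusted p 0.156) and miR-192 (0.46 ± 0.18, adjusted p 0.263) had the smallest p and 4 of 15 had an unadjusted p under 0.05, as did 15.2% of all sequences. At day 210 against day 30, 2 rose and 2 fell, where 4.60% of all sequences were called in each direction. miR-194a-5p rose to 1456 ± 136 at day 210, against 850.2 ± 131 at day 30 (SD, n = 3; adjusted p 0.0203), and miR-145-5p, also a smooth muscle miRNA, rose by a log2 of 0.78 ± 0.17 (adjusted p 0.0232). miR-107, of the miR-103 family, fell to 2866 ± 393 at day 210, against 5255 ± 640.4 at day 30 (adjusted p 0.00873). mir-16-2-p3 fell too and was listed at 0 in all day 210 libraries, against 3.62 to 8.58 at day 30, near the level of 5 reads (adjusted p 0.0342); with all values raised to a common floor its log2 fold change was -0.030 and the call was lost.

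At day 210 against day 90, where 4.13% of all sequences were called higher and 3.97% lower, miR-145-5p rose (log2 1.17 ± 0.17, adjusted p 0.00683) and mir-16-2-p3 fell (0 against 7.12 to 10.6, adjusted p 0.0203, and -0.16 with the common floor, not called), by limma, while miR-143-3p stood at 0.47 ± 0.15 (adjusted p 0.0924). The list's median log2 fold change was 0.29 between day 90 and day 30, 0.072 between day 210 and day 30 and 0.068 between day 210 and day 90, against -0.039, -0.15 and -0.14 for all sequences. The counts of the list depended on single libraries: between day 210 and day 30 the count of risers was 0 without day 30 replicate 1 or 3 and 1 without day 30 replicate 2 or day 210 replicate 2, and the count of fallers was 0 without day 30 replicate 1 and 1 without day 30 replicate 2 or 3, any 1 day 90 library or day 210 replicate 2. For day 210 over day 90 the count of fallers was 0 without any 1 of the day 90 libraries or day 210 replicate 2, and 4 without day 210 replicate 3, while that of risers was 2 without day 90 replicate 3. For day 90 over day 30, 1 fell without day 210 replicate 3.

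**Figure D5:**
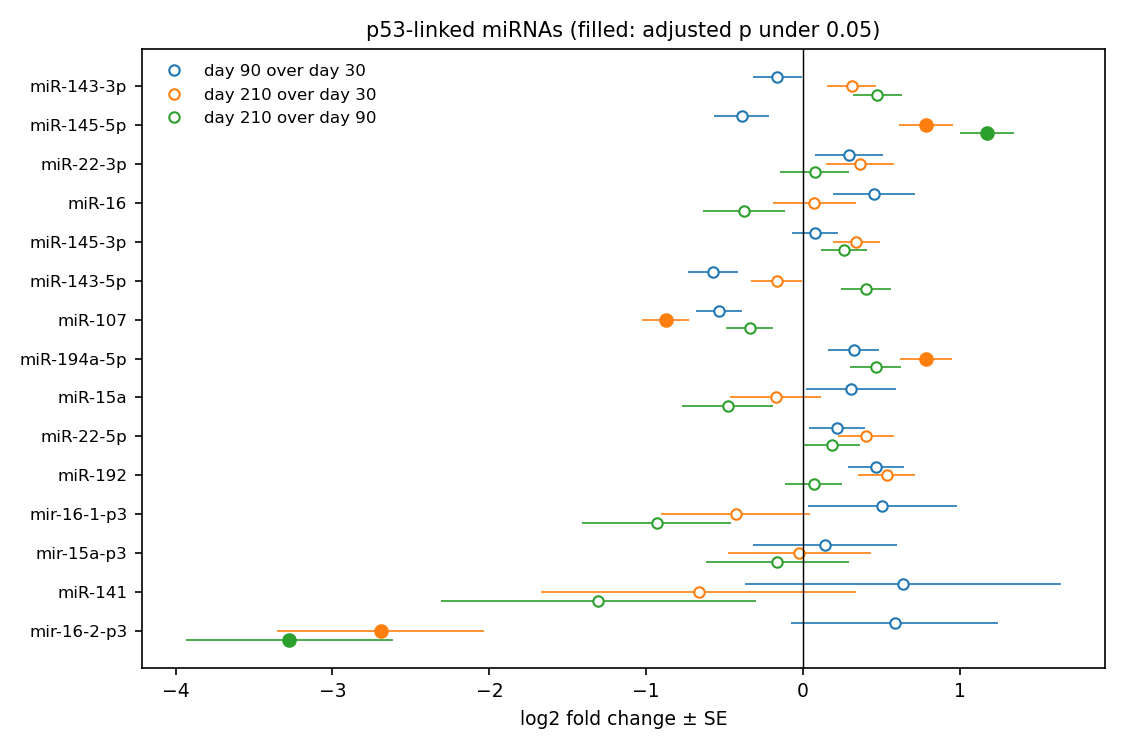
limma log2 fold change ± SE (horizontal axis) of the 15 tested entries of the p53-linked list in the 3 comparisons of ages, ordered by mean level with the most abundant at the top; filled symbols have an adjusted p under 0.05. Filled symbols stand on both sides of 0, and day 90 over day 30 has none.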

How the data were processed

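Per the labels' protocols, RNA was isolated with Trizol, a TruSeq small RNA kit gave the libraries, and the ACGT101-miR program filtered the reads for adapter dimers, junk, other RNA classes and repeats. The sources used here name no aligner, genome build or scaling method, so no positions are printed. The deposited values are normalised read numbers, a signal that the authors had scaled, not counts. Of 980 entries, 5 that repeated the sequence and values of another were dropped. Names of pig miRNAs are given without the isoform suffix. The full name of the miR-34c entry is ssc-miR-34c_1ss23CA, and the sequence printed for miR-34c is that of this entry. Whole multiples of a library's step (tolerance 0.01) made up 87.8% to 91.25% of its values above 0, too few for a count test. No molecular identifiers are named, so read numbers cover PCR copies.

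limma 3.58.1 in R 4.3.3 was fitted with a mean per age and a mean-variance trend, tested on simulated data first. Duplex pairs came from ViennaRNA 2.7.2. The members, lists and tests were chosen with earlier results of these data known. The miRNAs named are the members, the entries that share their seeds, the 5 most alike in pattern, and the called or 3 lowest-p entries of the p53-linked list. Cell type markers, from a list fixed with them, are named where called, those of red cells aside, or where they check the tissue label. miR-223 is named as the whole myeloid list. Further markers of the muscle, fibroblast, epithelial and neural lists are named after their values were seen. The alternatives were other pseudocounts (5 and 0.5), filters, scalings and weights, no trend, only the ages compared, a common floor, pig miRNAs only, summed isoforms, a replicate block, and leaving out each library.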

Additional observations from a re-analysis of the deposited data

How the results depend on the processing

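Of 198 values of members under 22 alternatives (9 member comparisons), 189 kept direction and side of the threshold. Values near 0 turned: between day 90 and day 30, miR-34c stood at 0.020 and mir-34c-1-p3 at 0.10 with sample weights. Without 1 library, miR-34c ran from -0.18 to 0.094, mir-34c-1-p3 from -0.25 to 0.18, and PC-5p-35806_77 from -0.37 to 0.22 (0.044 with the common floor). miR-34a ran from -0.63 to 0.094 between day 210 and day 30 (0.094 without day 210 replicate 2) and from -1.44 to -0.71 between day 210 and day 90, where sample weights gave -1.36 and a call; the cause was not tested. The count of sequences called between day 90 and day 30 was 7, but 24 with only the ages compared, 81 with sample weights, 13 with the common floor, 1 with the replicate block, and 1 to 20 without 1 library. Between day 210 and day 30 it was 58, but 92 with equal sums, 25 with only the ages compared, 109 with sample weights, 38 with the common floor, and 9 to 90 without 1 library. Between day 210 and day 90 it was 51, but 24 without the trend, 14 with only the ages compared, 100 with sample weights, and 8 to 112 without 1 library. Same-numbered libraries did not deviate together (correlations from -0.10 to 0.19), so the block pairs nothing known; with it miR-34a had an adjusted p of 0.0550 between day 210 and day 90, and no member was called. Of the p53-linked list between day 210 and day 30, risers were 0 with only the ages compared and 1 with equal sums (miR-194a-5p lost, adjusted p 0.0688 by limma), no trend or the common floor. Fallers there were 1 with only the ages compared, a pseudocount of 5, no filter, the stricter filter, the common floor or the replicate block (mir-16-2-p3, adjusted p 0.0601). Fallers between day 210 and day 90 were 0 with only the ages compared, the stricter filter or the common floor. Sample weights gave 3 fallers of the list between day 90 and day 30 and 2 between day 210 and day 90. Fitting only the ages compared also ended the calls of miR-146b (adjusted p 0.0526 by limma), miR-342 (0.0636) and miR-205 (0.102), and the replicate block that of miR-150 between day 90 and day 30 (0.0568). Equal sums ended that of miR-342 (0.0788), the common floor those of miR-205 (0.0662) and miR-133b (0.0539), and leaving out the trend every call of a marker named here (miR-133a-3p too) except miR-150 between day 210 and day 30 and miR-145-5p between day 210 and day 90. The planned count test was not run because whole reads could not be recovered; TMM factors were computed from their definition. Precision is limited by 3 libraries per age and, for mir-34c-1-p3 and PC-5p-35806_77, by few reads.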
